A study of Mus musculus with 12 samples.

Results

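Glycolysis and the response to low oxygen were described as one module of 40 genes in mouse D3 embryonic stem cells, a long-established line, cultured with or without leukemia inhibitory factor (LIF) and lithium. The members were chosen by name, with earlier results of these data known. They were glucose transporters, the enzymes from hexokinase to lactate dehydrogenase and their isozymes, the kinases that hold back pyruvate oxidation, and known hypoxia-induced genes. Of the 40 genes, 38 had at least 1 probe set annotated with exactly that symbol (82 probe sets in all), and no probe set carried the symbols Gpi1 or Eno1. Each gene was represented by its brightest probe set over all arrays, and all 38 were bright enough to be tested, among 12736 named genes. Total RNA was hybridised to 12 Affymetrix expression arrays after 7 days in medium with serum. The groups were LIF (1000 units per ml), LIF plus lithium (the labels give 50 nM), LIF-free, and LIF-free plus lithium, with 3 arrays each. Serum medium and the D3 line were common to all 4 groups, and all arrays came from that 1 line. The labels call the arrays of a group biological replicates, and the design text speaks of 3 independent experiments for each, without saying whether RNA was pooled.

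Glycolysis splits glucose into pyruvate in the cytosol. Pyruvate is then reduced to lactate, or enters the mitochondrion, where pyruvate dehydrogenase turns it into acetyl-CoA unless a pyruvate dehydrogenase kinase blocks that step. Most steps can be run by isozymes from different genes, which differ in kinetics and in the tissues that use them. When oxygen is low, prolyl hydroxylases (the Egln genes) stop marking the HIF alpha subunits for breakdown, and HIF binds the letters ACGTG or GCGTG near its target genes, many of them glycolytic. Mouse embryonic stem cells use both glycolysis and respiration while LIF holds them undifferentiated, and epiblast-like cells lean further on glycolysis.

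The letters ACGTG and GCGTG were common in the members' promoters, which are shown here because the module is defined in part by the hypoxia response. RefSeq promoters (build GRCm38.p6, the 250 bases before each annotated start) were matched by symbol for 36 of the 38 genes (all but Slc2a3 and Ndrg1), giving 55 promoters. ACGTG, on either strand, stood in 50.9% of these 55 and in 16.6% of all 32851 promoters of that length. GCGTG stood in 50.9% against 28.2%, and either of them in 80.0% against 38.6%. A window holding CACGTG counts once on each strand. The members' promoters were also richer in CpG, with a median of 14 CpG in the window against 6 over all promoters, and both motifs contain a CpG. Ak4 has 3 further RefSeq promoters, each with 0 ACGTG and 2 GCGTG, Ldha 1 further (0 and 1) and Pfkfb3 1 further (1 and 0), and the one richest in ACGTG is shown. The promoters below belong to genes whose transcripts fell without LIF (Hk2, Pfkp, Egln3, Ak4), rose (Pfkfb3) or did not pass the test (Ldha, Pgk1). They run 5′ to 3′ on the strand of the gene, with ACGTG or GCGTG, read on either strand (CACGT or CACGC where it lies on the other), in capitals.
Hk2 (chr6:82774455-82774704, minus strand): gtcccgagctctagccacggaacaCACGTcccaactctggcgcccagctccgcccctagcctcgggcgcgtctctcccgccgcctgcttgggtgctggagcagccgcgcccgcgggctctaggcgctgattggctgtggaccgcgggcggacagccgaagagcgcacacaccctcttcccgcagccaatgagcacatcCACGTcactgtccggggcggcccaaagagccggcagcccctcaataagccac
Pfkp (chr13:6648772-6649021, minus strand): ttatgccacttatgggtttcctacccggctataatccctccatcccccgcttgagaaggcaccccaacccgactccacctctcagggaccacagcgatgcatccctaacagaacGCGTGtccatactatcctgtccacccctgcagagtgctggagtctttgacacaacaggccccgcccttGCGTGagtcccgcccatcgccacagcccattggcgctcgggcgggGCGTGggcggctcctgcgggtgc
Egln3 (chr12:54203875-54204124, minus strand): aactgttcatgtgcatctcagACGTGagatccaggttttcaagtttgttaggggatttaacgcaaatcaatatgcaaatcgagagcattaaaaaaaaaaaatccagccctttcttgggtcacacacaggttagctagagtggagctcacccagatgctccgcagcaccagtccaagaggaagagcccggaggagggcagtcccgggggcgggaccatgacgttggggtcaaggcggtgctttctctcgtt
Ak4 (chr4:101419453-101419702, plus strand): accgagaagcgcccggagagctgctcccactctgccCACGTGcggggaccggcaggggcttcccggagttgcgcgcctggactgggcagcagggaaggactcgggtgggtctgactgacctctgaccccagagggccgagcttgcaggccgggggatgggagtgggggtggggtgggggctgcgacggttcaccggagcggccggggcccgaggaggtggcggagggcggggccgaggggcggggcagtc
Pfkfb3 (chr2:11502091-11502340, minus strand): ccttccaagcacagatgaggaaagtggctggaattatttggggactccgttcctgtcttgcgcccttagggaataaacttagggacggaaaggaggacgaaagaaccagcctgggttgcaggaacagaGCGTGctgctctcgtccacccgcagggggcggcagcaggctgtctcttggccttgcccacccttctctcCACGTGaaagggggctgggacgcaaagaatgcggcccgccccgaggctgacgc
Ldha (chr7:46845554-46845803, plus strand): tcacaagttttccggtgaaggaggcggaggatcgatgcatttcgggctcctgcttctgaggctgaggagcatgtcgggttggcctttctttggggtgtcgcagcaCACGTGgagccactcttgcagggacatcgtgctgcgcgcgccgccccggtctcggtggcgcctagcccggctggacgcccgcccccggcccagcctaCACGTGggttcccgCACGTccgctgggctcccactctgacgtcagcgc
Pgk1 (chrX:106186850-106187099, plus strand): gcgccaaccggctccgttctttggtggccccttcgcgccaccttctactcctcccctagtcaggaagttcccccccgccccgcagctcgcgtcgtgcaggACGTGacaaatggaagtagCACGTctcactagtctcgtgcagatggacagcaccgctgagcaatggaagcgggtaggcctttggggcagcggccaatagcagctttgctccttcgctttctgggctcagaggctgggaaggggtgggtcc
The letters were present in genes of every response. Either motif was present in a promoter of 14 of the 15 genes that fell over both lithium arms, of 4 of the 4 that rose, and of 16 of the 17 with a promoter that did not pass. ACGTG was present in 9, 3 and 12 of them. A match is only a run of letters, and binding was not measured.

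The arrays were checked against their LIF labels with genes outside the module. The pluripotency genes Pou5f1 (log2 change -1.44 without and -1.52 with lithium) and Zfp42 (-1.11 and -1.39) fell on LIF withdrawal, as did Socs3, the feedback target of LIF signalling (-1.68 and -2.14). Fgf5 of the primed epiblast rose from 12.7 ± 17.2 to 122 ± 18.9 without lithium and from 13 ± 13.3 to 104 ± 48.0 with lithium (mean ± SD, n = 3 arrays, limma adjusted p = 0.0292 and 0.0422), and no fold is given because its signals with LIF were near the arrays' medians. These calls were lost in 5 and 9 of the 12 fits that left out an array. Axin2, a target of Wnt signalling, rose on LIF withdrawal (log2 change 1.45 and 1.68; lost in 5 and 2 fits). Its signal with LIF was 23.1 ± 8.76 without and 24.0 ± 10.5 with lithium (n = 3 arrays each), and none of these 5 genes was called for lithium, so the lithium labels were not checked by them. Of 10 markers of undifferentiated cells, 7 fell without and 9 with lithium (3.91% and 4.93% of all probe sets were called lower). Of 8 trophoblast markers tested, 5 and 7 rose without and with lithium (5.39% and 7.52% of all probe sets were called higher). The summed signal of the trophoblast markers was 3368 to 5948 on the arrays with LIF and 11722 to 13899 on those without. Summed muscle markers were 332 to 460 with LIF and 501 to 848 without, and fibroblast markers 117 to 303 and 316 to 556. Bright genes weigh most in such sums, as Krt8 and Krt18 did for trophoblast, Acta1 for muscle and Col5a1 for fibroblast. Averaged over the arms, 2 of 7 muscle markers rose and 0 fell, and 4 of 7 fibroblast markers rose and 1 fell (13.9% and 10.8% of all probe sets). For endoderm it was 3 and 1 of 8, for neural 1 and 2 of 8, and for blood and endothelium 1 and 1 of 6. In bulk RNA fewer cells of a type and less RNA per cell cannot be told apart. Median signal per array was 10.5 to 19.3. Single arrays stood apart among the members. LIF replicate 3 held the highest of 12 values in 18 of the 38 genes, while it held the highest in 22.0% of all tested probe sets. LIF plus lithium replicate 3 was highest in 10 members (7.28% of all probe sets), and LIF-free plus lithium replicate 1 lowest in 12 (10.4%). The Gapdh 3′ to 5′ signal ratio, a measure of RNA integrity, averaged 0.816 and 0.832 with LIF and 0.764 and 0.782 without. The same ratio for beta-actin averaged 1.766 and 1.745 with LIF and 1.547 and 1.61 without. The part of cell makeup, of those arrays and of RNA quality in the results below was not tested, except where values without an array are given.

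On LIF withdrawal part of the module fell and a smaller part rose. A gene is said to have risen or fallen where limma gave an adjusted p under 0.05 over all 27030 probe sets tested. Without lithium, 1 member rose (5.39% of all probe sets tested were called higher) and 4 fell (3.91% called lower), and 18 had an unadjusted p under 0.05. With lithium, 2 rose (7.52% of all probe sets) and 7 fell (4.93%), and 17 had an unadjusted p under 0.05. Averaged over both arms, which uses all 12 arrays, 4 rose (13.9% of all probe sets), 15 fell (10.8%) and 19 did not pass. The members' median log2 change was -0.35 without lithium (-0.07 over all probe sets), -0.33 with lithium (0.11) and -0.33 averaged (0.02). These counts and medians describe a list drawn up with earlier results of these data known, so they are no test of the module. All 6 LIF-free arrays lay below all 6 arrays with LIF in 7 members (5.9% of all probe sets): Hk2, Pfkp, Pkm, Pgm2, Egln3, Ak4 and Mxi1. They lay above them in 2 (8.21% of all probe sets): Slc2a1 and Pfkfb3.

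**Figure D1:**
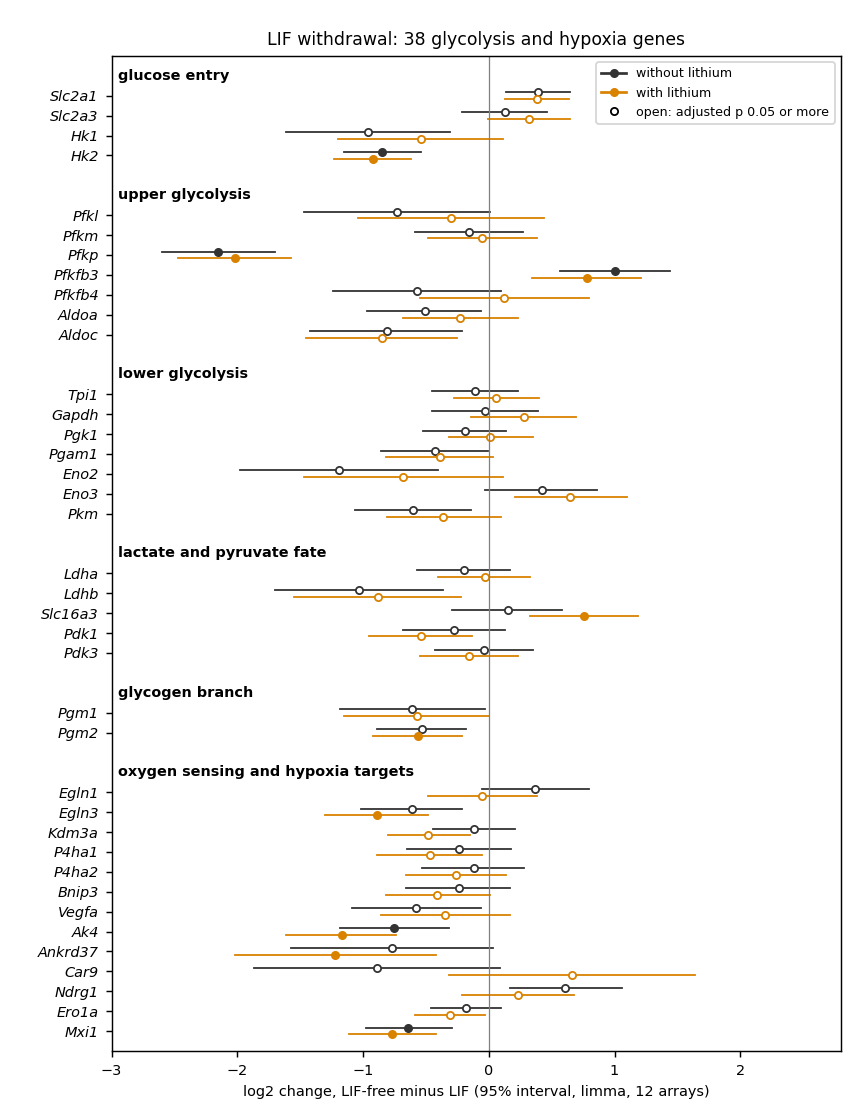
Log2 change on LIF withdrawal (LIF-free minus LIF, x axis) for the 38 genes by role, without lithium (black) and with lithium (orange), as limma estimates with 95% intervals over 12 arrays. Filled points have an adjusted p under 0.05, open points do not: Pfkp lies farthest to the left in both arms (-2.15 and -2.02) and Pfkfb3 farthest to the right (1.00 and 0.78).

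Equal replicate numbers marked arrays that deviated together between LIF and LIF-free, so the model with the replicate number as a block stands beside that comparison. With the block, 3 members rose (10.0% of all probe sets) and 16 fell (9.41%) without lithium. With lithium, where equal numbers deviated together to a similar degree, 4 rose (12.8%) and 15 fell (9.19%) under the block. Single arrays moved the counts: the 5 calls without lithium became 14 when LIF replicate 1 was left out, and 3 when either of the other LIF arrays, LIF-free replicate 1 or LIF-free replicate 2 was. The 9 calls with lithium became 14 when LIF replicate 1 was left out, 15 for LIF replicate 3, and 5 for LIF plus lithium replicate 3 or LIF-free plus lithium replicate 2. The 19 averaged calls stayed at 19 without LIF replicate 3. Scaling mattered too: centring each array on its median moved the median log2 change of all probe sets from -0.07 to 0.13 without lithium and from 0.11 to -0.23 with lithium. The share of all calls that were higher moved from 58.0% to 83.1% and from 60.4% to 34.9%. After centring, 1 member was called without lithium, the fall of Pfkp (0.973% of all probe sets were called lower and 4.8% higher). With lithium 6 fell (3.57% of all probe sets) and 0 rose (1.92%), with Pfkfb3, Slc16a3 and Pgm2 lost. Averaged over the arms 10 were called, 1 higher (7.5% of all probe sets) and 9 lower (6.15%). Lost there were Slc2a1, Hk1, Pgam1, Eno3, Pkm, Slc16a3, Pdk1, Pgm1 and Pgm2.

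At glucose entry the transporter Slc2a1 rose while both hexokinases fell, averaged over the arms. Slc2a1 (GLUT1), the widely used glucose transporter, had signals of 4458, 5173 and 4987 with LIF, 4568, 4257 and 4696 with LIF plus lithium, 6826, 5477 and 6983 LIF-free, and 6066, 5839 and 5689 LIF-free plus lithium. Every LIF-free array exceeded every array with LIF. Its averaged rise had a log2 change of 0.39 (95% interval 0.21 to 0.57, adjusted p = 0.0046), with 0.39 and 0.38 in the arms without and with lithium (adjusted p = 0.0537 and 0.0524, and 0.0366 and 0.0391 under the replicate block). All 3 of its probe sets had an averaged rise that passed, although median centring ended the call (log2 change 0.31, adjusted p = 0.259). Slc2a3 (GLUT3), a transporter of high affinity, read 4061, 4790 and 6439 with LIF, 4759, 4172 and 4125 with LIF plus lithium, 5830, 4934 and 5660 LIF-free, and 5488, 5710 and 5049 LIF-free plus lithium. The groups overlapped without lithium but not with it, and the averaged log2 change of 0.22 (95% interval -0.01 to 0.46, adjusted p = 0.165) did not pass, though it did after quantile normalization (0.18, adjusted p = 0.0181).

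Hexokinase traps glucose as glucose 6-phosphate. Hk2, the inducible, HIF-responsive form, read 1436, 1556 and 1292 with LIF, 1520, 1513 and 1536 with LIF plus lithium, 753, 835 and 791 LIF-free, and 652, 815 and 974 LIF-free plus lithium. No LIF-free array reached the lowest LIF array in either arm. Hk2 fell with a log2 change of -0.85 without lithium (95% interval -1.15 to -0.54, adjusted p = 0.00346) and -0.92 with lithium (95% interval -1.23 to -0.62, adjusted p = 0.00188), and it was called in both arms whichever of the 12 arrays was left out, though not without lithium after median centring (-0.65, adjusted p = 0.252). Hk1, the constitutive form, read 123, 183 and 326 with LIF, 101, 166 and 172 with LIF plus lithium, 89.2, 107 and 104 LIF-free, and 86.5, 108 and 100 LIF-free plus lithium. LIF replicate 3 was far the highest array, and the groups overlapped with lithium. Averaged over the arms Hk1 fell (log2 change -0.75, 95% interval -1.21 to -0.29, adjusted p = 0.0214). The call ended without LIF plus lithium replicate 2 (adjusted p = 0.0563) or 3 or LIF-free plus lithium replicate 1, and after median centring (adjusted p = 0.0588). In the arm without lithium its change was -0.96 (adjusted p = 0.0647, or 0.0059 with the block).

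The change of largest size in the module was at phosphofructokinase, the committed step of glycolysis. Pfkp, its platelet-type subunit, had signals of 842, 1137 and 1116 with LIF, 1068, 907 and 1192 with LIF plus lithium, 301, 209 and 195 LIF-free, and 270, 200 and 319 LIF-free plus lithium. The highest LIF-free value, 319, was far under the lowest value with LIF, 842. Pfkp fell in both arms, with a log2 change of -2.15 without lithium (95% interval -2.60 to -1.70, adjusted p = 0.000775) and -2.02 with lithium (95% interval -2.47 to -1.57, adjusted p = 0.000488), and averaged -2.08 (adjusted p = 1.36e-05). The fall was called in both arms without any 1 of the arrays and under every other setting tried for these comparisons. All 3 Pfkp probe sets fell without lithium and averaged over the arms. With lithium the dimmest of them missed the threshold (-1.25, adjusted p = 0.0522). The liver-type subunit Pfkl read 467, 717 and 1760 with LIF, 536, 663 and 676 with LIF plus lithium, 446, 511 and 571 LIF-free, and 449, 491 and 586 LIF-free plus lithium. One array, LIF replicate 3, stood well above the rest, and the groups overlapped in both arms. Its change did not pass without lithium (log2 change -0.73, adjusted p = 0.214, or 0.0496 with the block), nor averaged over the arms (-0.51, adjusted p = 0.15). The muscle-type subunit Pfkm ranged from 157 to 276 over all arrays and did not pass (averaged log2 change -0.10, 95% interval -0.41 to 0.20, adjusted p = 0.667).

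**Figure D2:**
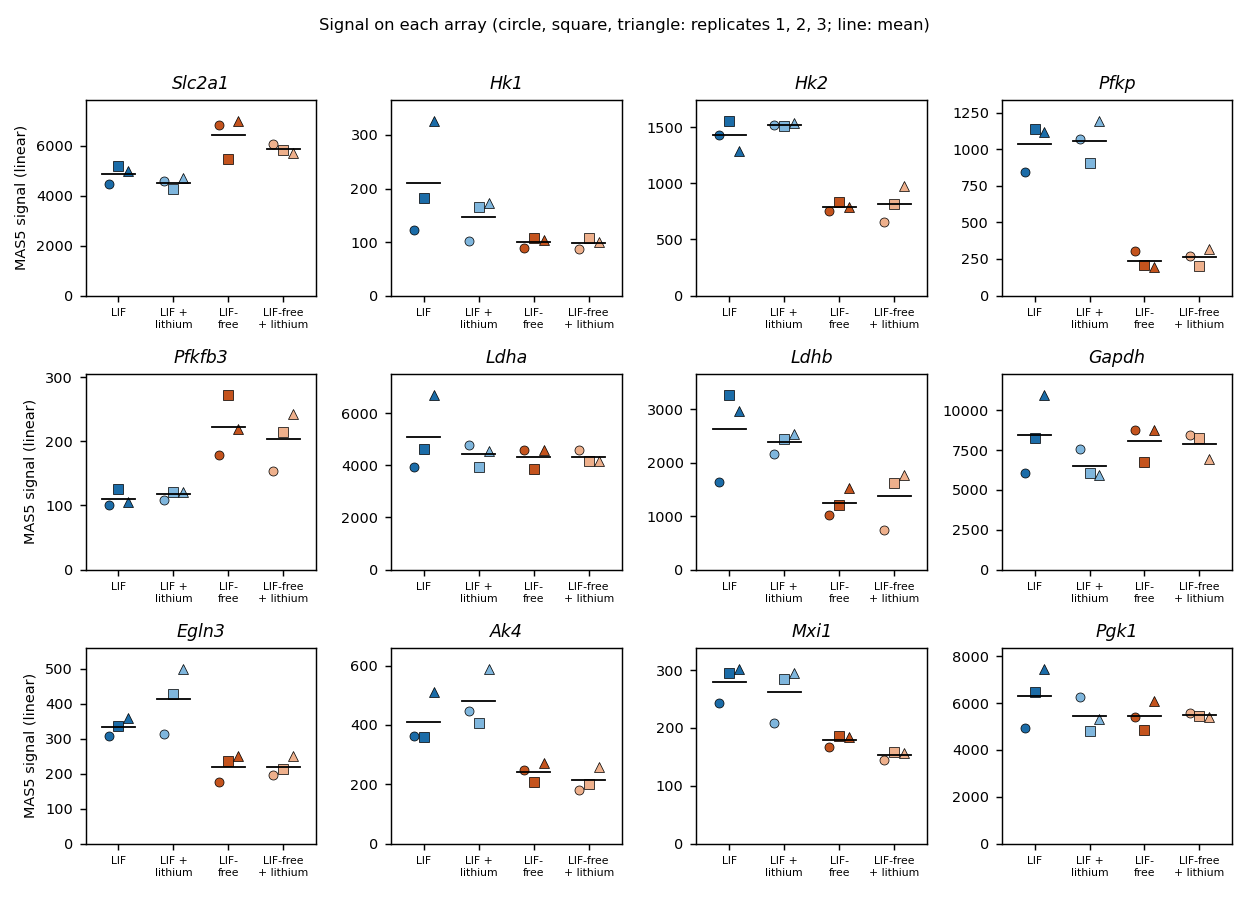
MAS5 signal (y axis, linear, from 0) on each of the 12 arrays for 12 members, by group (x axis). Symbols mark the replicate number and lines the group means: Hk2, Pfkp, Egln3, Ak4 and Mxi1 are lower on every LIF-free array, Pfkfb3 and Slc2a1 higher, while Ldha, Gapdh and Pgk1 overlap.

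The bifunctional enzyme Pfkfb3 makes fructose 2,6-bisphosphate, the strongest activator of phosphofructokinase, and it moved opposite to Pfkp. Its signals were 100, 126 and 105 with LIF, 108, 121 and 121 with LIF plus lithium, 179, 272 and 219 LIF-free, and 154, 214 and 242 LIF-free plus lithium. All LIF-free values were above all values with LIF. Pfkfb3 rose by a log2 change of 1.00 without lithium (adjusted p = 0.00905) and 0.78 with lithium (adjusted p = 0.0246), and averaged over the arms with a log2 change of 0.89 (95% interval 0.58 to 1.20, adjusted p = 0.000688). Without LIF-free replicate 2 the adjusted p without lithium was 0.0518. With lithium the call ended in 5 of the 12 fits that left out an array, up to 0.0939 without LIF-free plus lithium replicate 2; the others were LIF-free plus lithium replicate 3 and each LIF plus lithium array. A dimmer Pfkfb3 probe set did not pass (averaged log2 change 0.35, adjusted p = 0.459). Pfkfb4, its hypoxia-induced relative, was dim at 19.8 to 45.3 and did not pass (averaged log2 change -0.22, adjusted p = 0.522).

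Aldolase cleaves fructose bisphosphate. The muscle form Aldoa read 3594, 5873 and 7625 with LIF, 4551, 4587 and 4794 with LIF plus lithium, 3554, 3717 and 4190 LIF-free, and 3403, 4212 and 4366 LIF-free plus lithium. LIF replicate 3 was the highest, and the groups were apart with lithium but not without. The averaged log2 change of -0.37 (95% interval -0.69 to -0.05, adjusted p = 0.0914) did not pass, nor did that without lithium (-0.51, adjusted p = 0.152, or 0.0384 with the block). Quantile normalization made the averaged change pass (-0.39, adjusted p = 0.0117), and 2 of the other Aldoa probe sets fell averaged over the arms (-0.69 and -0.71, adjusted p = 0.0243 and 0.024). All Aldoa probe sets are of a design that can bind related transcripts, so their readings of this gene are uncertain, and so are those of the sets that represent Tpi1, Ldhb and Ndrg1. The brain form Aldoc read 304, 461 and 708 with LIF, 351, 437 and 590 with LIF plus lithium, 201, 282 and 320 LIF-free, and 226, 267 and 257 LIF-free plus lithium. The LIF-free values were the lower in both arms, with an overlap without lithium. Aldoc fell with a log2 change of -0.83 (95% interval -1.26 to -0.41, adjusted p = 0.00784) averaged over the arms, a call that no single array ended. In the separate arms its changes of -0.81 and -0.85 missed the threshold (adjusted p = 0.0849 and 0.064), and with the block it passed without and with lithium (adjusted p = 0.00302 and 0.00195).

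Tpi1, Gapdh and Pgk1, which have no isozyme in the module, did not pass. Tpi1, which interconverts the triose phosphates, ranged from 3063 to 4881, with an averaged log2 change of -0.03 (95% interval -0.27 to 0.22, adjusted p = 0.907). Gapdh, the oxidative step, ranged from 5921 to 10956, with its lowest value in the LIF plus lithium group and its highest on LIF replicate 3. Its averaged change was 0.12 (95% interval -0.17 to 0.42, adjusted p = 0.575). Gapdh was represented by the 5′ probe set of the RNA integrity ratio given above. The other Gapdh sets did not pass either (averaged 0.06 and 0.03, adjusted p = 0.803 and 0.899). Pgk1, which makes the first ATP, ranged from 4786 to 7452 with a change of -0.09 (95% interval -0.32 to 0.15, adjusted p = 0.622). Pgk1 passed after quantile normalization (-0.14, adjusted p = 0.0488). The sign of the Tpi1, Gapdh and Pgk1 estimates in the separate arms turned with median centring.

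Pgam1, phosphoglycerate mutase, read 2354, 2967 and 4207 with LIF, 2591, 2717 and 3269 with LIF plus lithium, 2063, 2222 and 2598 LIF-free, and 1852, 2074 and 2639 LIF-free plus lithium. The groups overlapped in both arms. It fell with a log2 change of -0.41 (95% interval -0.72 to -0.11, adjusted p = 0.0463) averaged over the arms, but 8 of the 12 fits that left out an array lost the call (up to an adjusted p of 0.114 without LIF plus lithium replicate 3; only LIF replicate 1, LIF-free replicate 3, LIF-free plus lithium replicate 3 and LIF plus lithium replicate 1 could be left out with the call kept). Without lithium it did not pass (-0.43, adjusted p = 0.199, or 0.0193 with the block). Enolase was represented by its neuronal and muscle forms alone. Neuronal Eno2, a known HIF target, was dim: 25.2, 26.8 and 53.0 with LIF, 18.1, 29.0 and 31.5 with LIF plus lithium, 17, 15 and 11.8 LIF-free, and 14.7, 14.3 and 19.1 LIF-free plus lithium. The groups overlapped only with lithium. Its averaged fall had a log2 change of -0.94 (95% interval -1.49 to -0.38, adjusted p = 0.018), and 0.051 was its adjusted p without LIF plus lithium replicate 3. Without lithium the change was -1.19 (adjusted p = 0.0583, or 0.0264 with the block). Muscle-type Eno3 read 178, 176 and 260 with LIF, 213, 190 and 157 with LIF plus lithium, 204, 284 and 332 LIF-free, and 291, 275 and 309 LIF-free plus lithium. With lithium all LIF-free values were higher. Eno3 rose with a log2 change of 0.53 (95% interval 0.22 to 0.85, adjusted p = 0.0164) averaged over the arms, kept without any single array but not after median centring (adjusted p = 0.175). Summed muscle markers were also higher on the LIF-free arrays, and 2 of the 7 tested rose averaged over the arms; their part in the Eno3 value was not tested.

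Pyruvate kinase closes the pathway. Pkm, its muscle-type gene, read 2300, 2871 and 5069 with LIF, 2621, 2772 and 2809 with LIF plus lithium, 2082, 2245 and 2062 LIF-free, and 2032, 2093 and 2284 LIF-free plus lithium. The highest LIF-free value, 2284, was just below the lowest value with LIF, 2300, so the 2 sets of 6 arrays did not overlap by a narrow margin. Pkm fell with a log2 change of -0.48 (95% interval -0.80 to -0.15, adjusted p = 0.0332) averaged over the arms. The call ended without any 1 of 7 arrays (each LIF-free array, LIF-free plus lithium replicates 1 and 2, and LIF plus lithium replicates 2 and 3), with a highest adjusted p of 0.0706. Without lithium the change was -0.60 (adjusted p = 0.0961, or 0.0329 with the block).

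The lactate dehydrogenase genes differed in their response: Ldhb fell and Ldha did not pass. Ldha, the form that favours lactate production and a classical HIF target, read 3937, 4634 and 6697 with LIF, 4776, 3942 and 4539 with LIF plus lithium, 4592, 3847 and 4577 LIF-free, and 4590, 4158 and 4164 LIF-free plus lithium. Apart from LIF replicate 3, its values lay between 3847 and 4776 in every group. The averaged change on the log2 scale was -0.12 (95% interval -0.38 to 0.14, adjusted p = 0.542) and did not pass. Ldhb, the form that favours lactate use, read 1645, 3264 and 2960 with LIF, 2158, 2449 and 2541 with LIF plus lithium, 1015, 1203 and 1527 LIF-free, and 745, 1616 and 1772 LIF-free plus lithium. Within each arm every LIF-free array was below every array with LIF. Ldhb fell with a log2 change of -0.96 (95% interval -1.43 to -0.48, adjusted p = 0.00652) averaged over the arms, whichever array was left out. All 4 Ldhb probe sets passed that averaged test with changes of -0.92 to -1.03. In the separate arms the brightest set missed the threshold (-1.03, adjusted p = 0.0542 without lithium, or 0.00139 with the block, and -0.88, adjusted p = 0.0808 with lithium, or 0.00316 with the block).

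The transporters and kinases that set the fate of pyruvate moved unevenly. Slc16a3 (MCT4), which exports lactate, read 109, 88.4 and 146 with LIF, 96.4, 78.1 and 70.3 with LIF plus lithium, 119, 143 and 112 LIF-free, and 137, 135 and 139 LIF-free plus lithium. The LIF-free values were above those with LIF only in the lithium arm. There Slc16a3 rose (log2 change 0.76, adjusted p = 0.0272), while without lithium the change was 0.15 (adjusted p = 0.716); the difference between the arms, 0.61, did not pass (adjusted p = 0.999). The rise with lithium was lost without any 1 of 5 arrays (all 3 LIF-free plus lithium arrays and LIF plus lithium replicates 2 and 3, up to 0.117). The averaged rise of 0.45 (adjusted p = 0.0333) was lost in 8 fits, up to 0.0899 without LIF-free replicate 2, and kept only without LIF replicate 1 or 3, LIF-free replicate 3 or LIF plus lithium replicate 1. Pdk1, the HIF-induced kinase that shuts pyruvate dehydrogenase, read 1911, 1750 and 1265 with LIF, 1964, 1679 and 1710 with LIF plus lithium, 1240, 1203 and 1600 LIF-free, and 1124, 1041 and 1570 LIF-free plus lithium. LIF replicate 3 was the lowest LIF array here, and the groups were apart only with lithium. The averaged fall had a log2 change of -0.41 (95% interval -0.69 to -0.12, adjusted p = 0.0396), and 9 of the fits that left out an array lost the call (up to 0.104; it was kept without replicate 3 of LIF, LIF-free or LIF-free plus lithium). Quantile normalization also ended it (adjusted p = 0.0562). The other Pdk1 probe sets tested also fell averaged over the arms, with log2 changes of -0.62 (adjusted p = 0.00156) and -1.08 (adjusted p = 0.000177), and both were called in each arm. Pdk3, another kinase of this family, ranged from 202 to 329 and did not pass (averaged log2 change -0.10, adjusted p = 0.627).

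Phosphoglucomutase links glucose 6-phosphate to glycogen, and its genes Pgm1 and Pgm2 fell averaged over the arms. The symbols are those of the array annotation, and because they have been exchanged in mouse it is uncertain which enzyme each value belongs to. Pgm2 read 183, 215 and 242 with LIF, 219, 198 and 275 with LIF plus lithium, 153, 129 and 159 LIF-free, and 157, 147 and 160 LIF-free plus lithium. No LIF-free value reached 183, the lowest value with LIF. Pgm2 fell with lithium (log2 change -0.56, adjusted p = 0.0422) and averaged over the arms (-0.55, 95% interval -0.80 to -0.30, adjusted p = 0.00426), and without lithium the change was -0.53 (adjusted p = 0.0605). The call with lithium ended in 9 fits that left out an array, up to 0.186 (it was kept without LIF replicate 1 or 3 or LIF plus lithium replicate 2), and after quantile normalization (0.0501), whereas no single array ended the averaged call. Without lithium the block gave an adjusted p of 0.0153. Pgm1 read 256, 320 and 486 with LIF, 307, 319 and 438 with LIF plus lithium, 177, 228 and 280 LIF-free, and 200, 200 and 327 LIF-free plus lithium. The groups overlapped in both arms. Its averaged fall had a log2 change of -0.59 (95% interval -1.0 to -0.18, adjusted p = 0.0361), lost in 8 fits that left out an array, up to 0.0917, the same 8 arrays as for Pgam1. Without lithium the change of -0.61 did not pass (adjusted p = 0.179, or 0.00497 with the block). A dim Pgm1 probe set did not pass (averaged log2 change -0.15, adjusted p = 0.836).

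**Figure D3:**
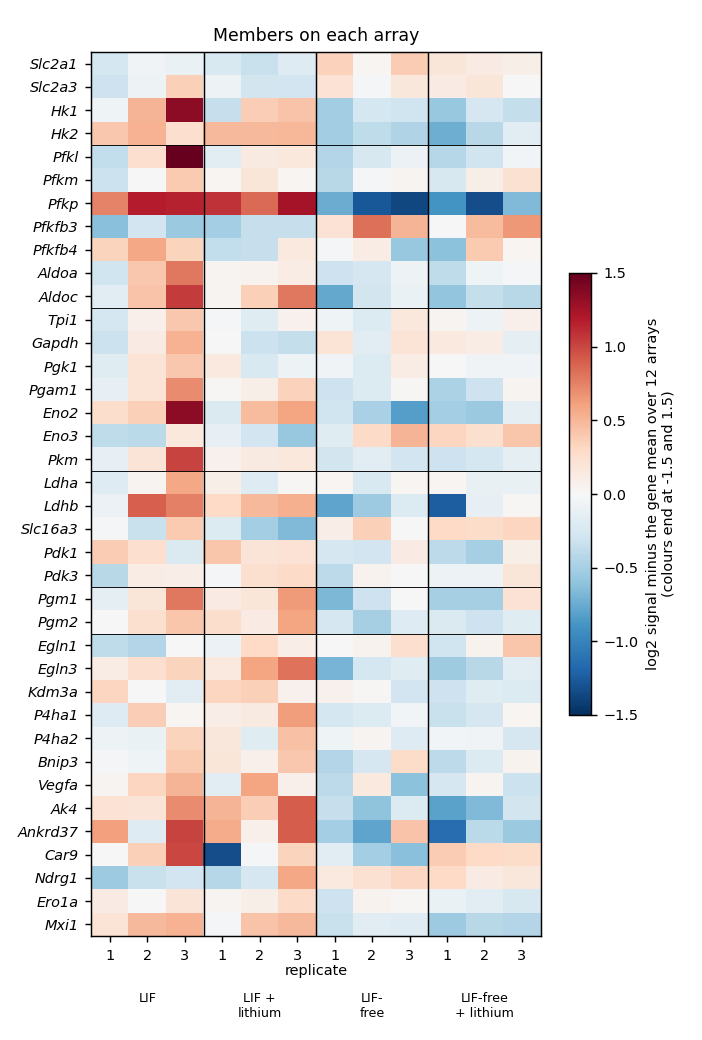
Log2 signal of the 38 members (rows, by role) on each of the 12 arrays (columns, by group and replicate), minus the gene's mean over the arrays, with red above and blue below. LIF replicate 3 is the reddest column, holding the highest value of 18 genes, and Pfkp is the row with the strongest contrast between arrays with and without LIF.

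Among the oxygen sensors, the hydroxylase Egln3 fell and the hydroxylase Egln1 did not pass. Egln3 (PHD3) read 307, 337 and 358 with LIF, 313, 428 and 499 with LIF plus lithium, 175, 236 and 249 LIF-free, and 196, 213 and 251 LIF-free plus lithium. Every LIF-free array, at 251 or less, was below every array with LIF, at 307 or more. Egln3 fell with a log2 change of -0.75 (95% interval -1.04 to -0.46, adjusted p = 0.0014) averaged over the arms and of -0.89 with lithium (adjusted p = 0.00983, or 0.0541 without LIF plus lithium replicate 3). Without lithium the change of -0.61 missed the threshold (adjusted p = 0.0598, or 0.00382 with the block). A dimmer Egln3 probe set did not pass without lithium (-0.68, adjusted p = 0.373), with lithium (-0.97, 0.168) or averaged (-0.83, 0.0672). Egln1 (PHD2), the main oxygen sensor, ranged from 118 to 213, with an averaged change of 0.16 (95% interval -0.14 to 0.47, adjusted p = 0.454).

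The hypoxia targets Ak4, Ankrd37 and Mxi1 fell, and none of the 13 members grouped here as oxygen sensors and hypoxia targets rose averaged over the arms. That count depends on the grouping, because HIF targets such as Hk2, Pdk1 and Ldha stand under other roles. The 4 members that rose averaged over the arms, Slc2a1, Pfkfb3, Eno3 and Slc16a3, also stand there. The count therefore does not compare HIF targets with other genes. Under the replicate block 1 of the 13 rose averaged over the arms, Ndrg1 (17.8% of all probe sets), and 9 fell (15.8%). Ak4, a mitochondrial adenylate kinase, read 364, 358 and 512 with LIF, 448, 405 and 588 with LIF plus lithium, 248, 206 and 273 LIF-free, and 180, 199 and 259 LIF-free plus lithium. The highest LIF-free value was 273 and the lowest with LIF 358. Ak4 fell in both arms, with a log2 change of -0.75 without lithium (95% interval -1.18 to -0.32, adjusted p = 0.0328) and -1.17 with lithium (95% interval -1.61 to -0.74, adjusted p = 0.00312), and averaged -0.96 (adjusted p = 0.000382). Without lithium the call ended without LIF replicate 2 or 3 or LIF-free replicate 1 or 2, up to an adjusted p of 0.134. A further Ak4 probe set fell in both arms (-1.03 and -1.28, adjusted p = 0.0104 and 0.00281). A dimmer Ak4 set fell averaged over the arms (-0.99, adjusted p = 0.0273) but in neither arm alone (-0.67 and -1.30, adjusted p = 0.364 and 0.0595). Mxi1, an antagonist of Myc, read 244, 295 and 302 with LIF, 208, 285 and 296 with LIF plus lithium, 167, 187 and 185 LIF-free, and 145, 158 and 156 LIF-free plus lithium. Its LIF-free values, up to 187, did not reach the lowest with LIF, 208. Mxi1 fell in both arms, with a log2 change of -0.64 without lithium (95% interval -0.98 to -0.29, adjusted p = 0.0257) and -0.77 with lithium (95% interval -1.11 to -0.42, adjusted p = 0.00867), and averaged -0.70 (adjusted p = 0.000708). Without lithium the call ended without LIF replicate 2 or 3 or any LIF-free array, up to 0.0936. A dimmer Mxi1 probe set did not pass without lithium (-0.75, adjusted p = 0.101), with lithium (-0.33, 0.483) or averaged (-0.54, 0.0558). Ankrd37, an ankyrin repeat protein induced by HIF, read 102, 58.5 and 135 with LIF, 98.4, 70.4 and 125 with LIF plus lithium, 47.0, 38.6 and 89.5 LIF-free, and 30.2, 50.3 and 45.2 LIF-free plus lithium. The groups were apart only with lithium. It fell with a log2 change of -1.22 with lithium (adjusted p = 0.048) and with a log2 change of -0.99 (95% interval -1.56 to -0.43, adjusted p = 0.0142) averaged over the arms. The call with lithium ended without any 1 array of either lithium group, or LIF-free replicate 1 or 2 (up to 0.189), whereas no single array ended the averaged call.

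The brightest probe sets of the other hypoxia targets did not pass the averaged test without a replicate block. Under the block Kdm3a, Bnip3, Vegfa, P4ha1 and Ero1a fell averaged over the arms (limma, adjusted p = 0.0189, 0.00712, 0.0114, 0.0262 and 0.0433). Ndrg1 rose (0.0163), while P4ha2 (0.268) and Car9 (0.816) did not pass. Of all probe sets 17.8% were called higher and 15.8% lower in that model. Kdm3a, a histone demethylase, read 754, 599 and 536 with LIF, 751, 770 and 631 with LIF plus lithium, 629, 607 and 495 LIF-free, and 485, 532 and 524 LIF-free plus lithium. Its averaged change on the log2 scale was -0.30 (95% interval -0.53 to -0.07, adjusted p = 0.0566). Bnip3, which drives mitophagy, read 1883, 1828 and 2522 with LIF, 2169, 2014 and 2540 with LIF plus lithium, 1415, 1608 and 2313 LIF-free, and 1455, 1656 and 1984 LIF-free plus lithium. Vegfa, the angiogenic growth factor, read 127, 155 and 177 with LIF, 111, 187 and 130 with LIF plus lithium, 94.6, 137 and 81.1 LIF-free, and 104, 127 and 99.4 LIF-free plus lithium. Both were lower on average without LIF (log2 change -0.32, adjusted p = 0.105, and -0.46, adjusted p = 0.0632). The groups overlapped without lithium for both genes, and with lithium for Vegfa but not Bnip3. The block gave Vegfa an adjusted p of 0.0357 without lithium, and with lithium it gave Bnip3 0.0219, Kdm3a 0.0152 and P4ha1 0.0496. The averaged Vegfa change passed after quantile normalization (-0.50, adjusted p = 0.0396). A dimmer Vegfa probe set did fall averaged over the arms (-1.04, adjusted p = 0.0375), as did a dimmer one of Ero1a (-0.48, adjusted p = 0.0235), an oxidase of protein folding. P4ha1, a collagen prolyl hydroxylase, read 124, 182 and 144 with LIF, 152, 155 and 218 with LIF plus lithium, 118, 123 and 138 LIF-free, and 112, 119 and 144 LIF-free plus lithium. The brightest Ero1a set read 691, 634 and 726 with LIF, 654, 672 and 773 with LIF plus lithium, 512, 659 and 643 LIF-free, and 590, 565 and 536 LIF-free plus lithium. For both genes the groups were apart with lithium and overlapped without it, and the averaged changes were -0.35 (adjusted p = 0.0769) and -0.25 (adjusted p = 0.0673). P4ha2, the sister hydroxylase, ranged from 116 to 188 with an averaged change of -0.19 (adjusted p = 0.332). Ndrg1, a stress-induced gene, read 357, 413 and 426 with LIF, 385, 435 and 775 with LIF plus lithium, 573, 611 and 643 LIF-free, and 637, 568 and 585 LIF-free plus lithium. It was higher on every LIF-free array in the arm without lithium (log2 change 0.61, adjusted p = 0.082, or 0.0246 with the block), and LIF plus lithium replicate 3, at 775, was its highest array. Its averaged change of 0.42 had an adjusted p of 0.0501, or 0.0324 after quantile normalization. Car9, a carbonic anhydrase much used as a hypoxia marker, was dim throughout, from 5.78 to 29.1, with an averaged change of -0.11 (95% interval -0.81 to 0.58, adjusted p = 0.848).

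Isozymes of one step could be compared through their ratio on the same array, which cancels any scaling of the array. A change in the ratio shows unequal change and gives no level of one form against the other, because probe sets share no scale. Of 13 pairs planned, 11 could be computed, as both enolase pairs needed Eno1. LIF labels were exchanged within each lithium arm in an exact permutation test (two-sided, 400 arrangements, smallest possible p 0.005), adjusted over the 11 pairs, and 6 pairs passed. The log2 ratio of Ldhb to Ldha fell by 0.84 (exact permutation, adjusted p = 0.0138), with changes of -0.83 and -0.85 in the arms without and with lithium. Pfkp to Pfkl fell by 1.57 (exact permutation, adjusted p = 0.022), and Pfkm to Pfkl rose by 0.41 (exact permutation, adjusted p = 0.0367). The last rested on single arrays: it was 0.23 without LIF replicate 3, and it missed the threshold without any LIF-free array, or LIF-free plus lithium replicate 2 or 3, up to 0.156.

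Egln3 to Egln1 fell by 0.92 (exact permutation, adjusted p = 0.0138), with all 6 LIF-free ratios below all 6 with LIF. Pfkfb4 to Pfkfb3 fell by 1.11 (exact permutation, adjusted p = 0.0138) and its 6 LIF-free ratios also lay below the others. Aldoc to Aldoa fell by 0.46 (exact permutation, adjusted p = 0.0138), but the direction turned (0.32) when all probe sets of a gene were averaged, which adds an Aldoc set at a mean signal of 3.89 with and 5.66 without LIF. Ratios that did not pass were Slc2a3 to Slc2a1 (-0.17, exact permutation, adjusted p = 0.118), Hk2 to Hk1 (-0.13, 0.715), Pdk3 to Pdk1 (0.30, 0.199), P4ha2 to P4ha1 (0.16, 0.391) and Pgm2 to Pgm1 (0.04, 0.795). With the pairing by replicate number the exact sign-flip test allows no raw p under 0.0312, and 0 of 11 pairs passed (adjusted p = 0.0688 at the lowest). Pfkp to Pfkl, Aldoc to Aldoa, Ldhb to Ldha, Pfkfb4 to Pfkfb3 and Egln3 to Egln1 stood at that smallest raw p. In each of them all 6 same-numbered differences had the same direction.

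**Figure D4:**
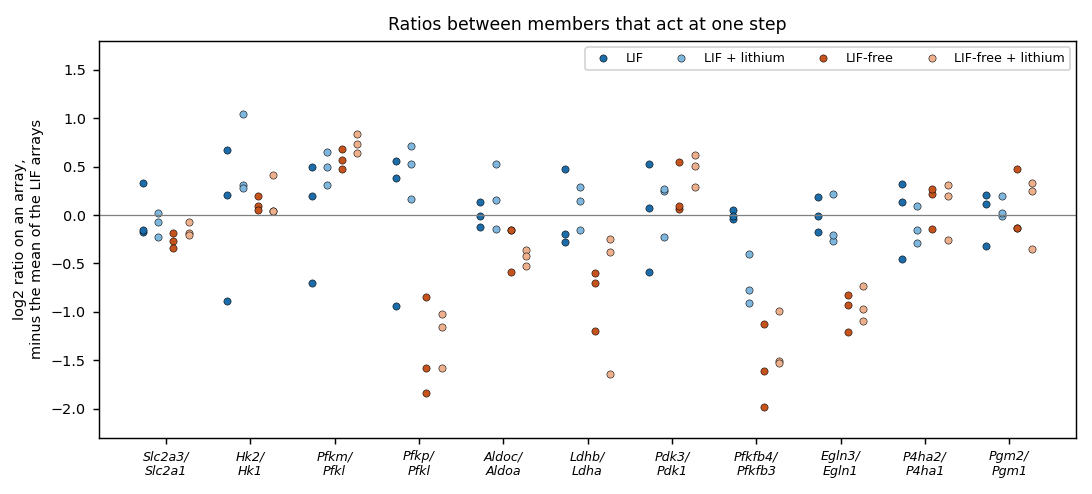
Log2 ratio of the signals of paired isozymes on each array, minus the mean of that ratio over the 3 LIF arrays (y axis), for 11 pairs (x axis) and 4 groups (colours). The LIF-free points lie below the points with LIF for Egln3/Egln1, Pfkfb4/Pfkfb3 and Aldoc/Aldoa, and below them within each lithium arm for Ldhb/Ldha, while those of Pgm2/Pgm1 and P4ha2/P4ha1 are mixed.

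No member passed the test for lithium. With LIF, limma called 0 of 38 members (0.0% of all probe sets were called) and 1 had an unadjusted p under 0.05, Slc16a3 (log2 change -0.47). Without LIF, 0 of 38 were called (0.0% of all probe sets) and 0 had an unadjusted p under 0.05. The members' log2 changes with lithium ran from -0.80 to 0.37 with LIF and from -0.41 to 0.75 without it, and Car9 gave both the lowest of the first range and the highest of the second. The interaction, which asks whether LIF withdrawal acted differently with lithium, was called in 0 members (0.0% of all probe sets) and had an unadjusted p under 0.05 in 1, Car9 (1.55, 95% interval 0.16 to 2.94). The median half-width of a member's 95% interval was 0.43 for a change with lithium and 0.61 for the interaction, which is the precision that 3 arrays a group gave.

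Most other genes of the pathway did not pass. Of 27 further glycolytic, gluconeogenic and pyruvate genes tested, 0 rose and 4 fell without lithium, 0 and 3 with lithium, and 1 and 6 averaged over the arms. Of all probe sets, 5.39% rose and 3.91% fell without lithium, 7.52% and 4.93% with lithium, and 13.9% and 10.8% averaged. With the block 1 rose and 8 fell without lithium (10.0% and 9.41% of all probe sets). Their median averaged log2 change was -0.34, against 0.02 over all probe sets. Mpc1, a subunit of the mitochondrial pyruvate carrier, fell from 489 ± 56.5 to 221 ± 13.2 without lithium (mean ± SD, n = 3 arrays a group, log2 change -1.14, adjusted p = 0.00177) and from 548 ± 117 to 190 ± 13.3 with lithium (-1.51, adjusted p = 0.000488). Pdhb, a subunit of pyruvate dehydrogenase, fell in both arms (-0.40 and -0.64, adjusted p = 0.0409 and 0.00364), the first call lost in 10 of the 12 fits that left out an array. Averaged over the arms Pdk4, a kinase that blocks that enzyme (-1.43), Pck2, a mitochondrial carboxykinase (-0.92), and Tigar, which lowers fructose 2,6-bisphosphate (-0.71), fell, and the lactate carrier Slc16a1 (MCT1) rose (0.55). Of 12 pentose phosphate and glycogen genes (median averaged log2 change 0.00), 1 rose and 0 fell without lithium (1 and 3 with the block) and 0 and 0 with lithium, while 1 rose (Ugp2, 0.39) and 2 fell (Taldo1, -0.49, and Pygl, -1.23) averaged over the arms.

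The factors that drive the hypoxia response were measured as well. Of 15 HIF subunits and regulators tested, 1 rose and 1 fell without lithium (1 and 2 with the block), 1 and 2 with lithium, and 1 and 2 averaged over the arms (median log2 change -0.04). Among all probe sets 5.39% rose and 3.91% fell without lithium (10.0% and 9.41% with the block). With lithium these shares were 7.52% and 4.93%, and averaged 13.9% and 10.8%. Hif1a did not pass, with signals of 1043 ± 87.3 and 1215 ± 64.4 with and without LIF (n = 3 arrays each, log2 change 0.22, adjusted p = 0.323) and a change of 0.00 with lithium (adjusted p = 0.987). Epas1, which encodes the HIF-2 alpha subunit, fell from 388 ± 54.4 to 151 ± 38.7 without lithium (log2 change -1.38, adjusted p = 0.00248) and from 454 ± 79.7 to 152 ± 31.5 with lithium (-1.58, adjusted p = 0.00107). Arnt, the shared partner, fell averaged over the arms (-0.74, adjusted p = 0.00591). Cited2, which competes with HIF for its coactivator, rose from 525 ± 70.0 to 1025 ± 97.9 without lithium (0.97, adjusted p = 0.00206) and by 0.99 with lithium (adjusted p = 0.00145). Vhl (averaged log2 change 0.02), Egln2 (0.00) and Hif1an (-0.04), which mark or restrain HIF, did not pass.

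Of 26 other HIF targets tested, 2 rose and 1 fell without lithium (2 and 3 with the block), 3 and 2 with lithium, and 2 and 4 averaged over the arms (median log2 change -0.18). For all probe sets the shares that rose and fell were 5.39% and 3.91% without lithium (10.0% and 9.41% with the block). They were 7.52% and 4.93% with lithium, and 13.9% and 10.8% averaged. Angptl4, a lipase inhibitor, fell (-1.95 and -2.32 without and with lithium, adjusted p = 0.00508 and 0.00179), as did Higd1a, a respiratory chain factor (averaged -0.57), Bhlhe40, a repressor (-0.69), and Selenbp1 (-0.86); leaving out an array ended the averaged call in 5 fits for Bhlhe40 and 9 for Selenbp1. Cxcr4, a chemokine receptor, rose (1.97 and 2.55, adjusted p = 0.0376 and 0.00959, the first lost in 6 fits), and so did Cited2, which is in this list too. The sizes for Cxcr4 and Angptl4 are uncertain, as signals near the arrays' medians enter them. Without and with lithium, Cxcr4 read 14.4 ± 4.37 and 9.7 ± 3.4 with LIF, and Angptl4 21.5 ± 5.17 and 16.8 ± 7.64 LIF-free (n = 3 arrays each). Of 13 regulators acting upstream, 0 rose and 2 fell without lithium, 2 and 2 with lithium, and 3 and 2 averaged over the arms (median log2 change -0.07): Esrrb, an activator of metabolic genes in naive cells (-1.89), and Sirt1, a deacetylase (-0.71), fell, and Lin28a, an RNA-binding protein (0.60), Mlxip, a glucose-sensing factor (0.43), and Sirt6, a deacetylase that represses glycolytic genes (0.66), rose. The change of Sirt6 was 0.14 without lithium (adjusted p = 0.829) and 1.18 with lithium (adjusted p = 0.0243). The Mlxip call was lost in 6 and the Sirt6 call in 8 of the fits that left out an array. Myc, an activator of many glycolytic genes, did not pass (averaged log2 change 0.42, adjusted p = 0.121).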

How the data were processed

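Total RNA of 12 cultures was measured on 1 Affymetrix array each, 3 arrays in each of 4 groups. The authors deposited 1 MAS5 intensity per probe set and array (MAS5 per the submitters' processing notes, its version not given in the sources used here). Deposited intensity values below 1, which made up 0.146% of those tested, were raised to 1 before log2. Of 45101 probe sets, 51 controls without a gene symbol were left out, and 27030 with a mean log2 above the 40th percentile (signal 7.52) were tested. The number of arrays limits the precision.

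limma 3.58.1 in R 4.3.3 fitted 1 mean per group over all 12 arrays (8 residual degrees of freedom, variance moderated with an intensity trend), with Benjamini-Hochberg adjustment over all 27030 probe sets. The comparisons were LIF withdrawal without lithium, with lithium and averaged over both, lithium with and without LIF, and the interaction. Isozyme ratios were tested by exact permutation. Probe sets were named from the platform annotation, by exact symbol.

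The members and gene lists were chosen with earlier results of these data known. Every member was named, with the value of each array for those past an adjusted p of 0.05 in a comparison, with or without the replicate block. From the other lists up to 6 genes past the threshold were named in order of p, besides HIF subunits and regulators, Slc16a1, Myc and the genes that check the labels. Alternatives were quantile normalization, median centring, log2 of the signal plus 16, no filter or the 60th percentile, no intensity trend, fits on the compared arrays only, the mean over probe sets, sets other than the cross-binding design, the replicate block, and each array left out in turn.

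Residuals of same-numbered arrays were compared to see whether the numbers pair the arrays. Their correlations for replicates 1, 2 and 3 were 0.438, 0.137 and 0.339 between LIF and LIF-free, so the pairing was accepted there. With lithium they were 0.451, 0.097 and 0.379, and it was not, although these values differ little from those without lithium. The counts with the block are therefore given for both arms.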

Additional observations from a re-analysis of the deposited data

How the results depend on the processing

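The 5 calls among members without lithium became 10 with the filter at the 60th percentile, 8 after quantile normalization, 3 without the intensity trend, 3 with only the arrays compared and 1 after median centring, and ranged from 3 to 14 when an array was left out. The 9 calls with lithium ranged from 5 to 15 when an array was left out. The 19 averaged calls became 10 after median centring and ranged from 13 to 22 without an array. The 6 isozyme ratios ranged from 5 to 8. No member was called for lithium or the interaction under the alternatives run. With the replicate block the calls were 19 without lithium, 19 with lithium (4 rose, 15 fell, with 12.8% and 9.19% of all probe sets called higher and lower) and 27 averaged (5 rose, 22 fell, with 17.8% and 15.8%; gained were Pfkl, Aldoa, Kdm3a, P4ha1, Bnip3, Vegfa, Ero1a and Ndrg1), and 0 isozyme ratios passed in the paired sign-flip test. The sign-flip test could hardly pass a pair, because its smallest raw p, 0.0312, is adjusted over 11 pairs. The Aldoc to Aldoa ratio reversed to 0.32 with the mean over probe sets. Over the values of single members and ratios under all alternatives, 2256 kept their direction and side of the threshold, 118 passed where they had not, 135 no longer passed, 36 without a call moved by more than the replicate SD and 1 reversed. The cause was not tested, beyond fewer arrays in some fits. Both enolase ratios could not be run. With 3 arrays a group the median 95% half-width was 0.43 for a member in 1 arm and 0.30 averaged.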

Other observations

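Car9 was the member whose estimates differed most between the lithium arms. Its signals were 14.6, 18.5 and 29.1 with LIF and 12.9, 10.2 and 9.42 without, and with lithium 5.78, 14.2 and 18.2 with LIF and 18.9, 17.8 and 17.6 without. The interaction was 1.55 on the log2 scale and did not pass (limma, unadjusted p = 0.0311, adjusted p = 0.999). All of these values are dim.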
